A study of Mus musculus with 20 samples.

Results

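The class I olfactory receptor (Olfr) promoters described here are the 124 of 22480 promoter probes whose gene symbol begins with Olfr and whose start lies between 102.0 and 105.9 Mb on mouse chromosome 7 (mm10). They are compared with the other 950 Olfr promoters and with the 54 promoters of the same interval that belong to no Olfr gene. Methylated sperm DNA was captured with a methyl-CpG binding domain (MBD) protein and sequenced in 20 libraries from males of the inbred strains C57BL/6J and FVB/N, with 5 males in each of 4 groups. Mothers of the DEHP groups received di-(2-ethylhexyl) phthalate, a plasticiser, by mouth at 300 mg per kg per day in corn oil from gestation day 9 to 19, and mothers of the control groups received corn oil alone. Sperm of the sons was taken at 8 weeks of age. The labels do not say which males shared a litter.

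Each probe spans 2200 bp, from 2000 bp before to 200 bp after a gene start. More captured DNA gives more reads, so a probe's read count follows both the methylation and the number of CG sites that can be bound. The values are the authors' means over the 5 libraries of a group, in normalized reads, and every error written as ± is the authors' SD of those 5 libraries. Only these group summaries were analysed, so no test between animals was made, and differences are given as log2 ratios of means after 1 read was added to each. With 5 against 5 libraries an exact two-sided permutation test can reach no lower than p = 0.00794, above what an adjustment over all promoters would need.

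Olfactory receptors are G protein-coupled receptors that sense odorants at the surface of olfactory sensory neurons, and each neuron uses 1 receptor allele. Class I receptors resemble those of fish, bind mainly water-soluble molecules such as carboxylic acids, and lie in a single cluster, which a distant enhancer called the J element regulates in the nose. The cluster surrounds the beta-globin genes. Some class I receptors also act outside the nose, such as Olfr78 in the carotid body and kidney.

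The label of the cluster was checked against the older mouse olfactory receptor (MOR) nomenclature. Of the 124 members, 121 carry a MOR name in the reference, and all 121 belong to families 1 to 42, the class I families. Among the 932 other Olfr genes with a MOR name, 3 belong to these families. The members run from Olfr543 (chr7:102477703-102479902) to Olfr692, whose probe ends at base 105368527. RefSeq lists 158 Olfr genes in the interval, of which 126 are protein coding and 32 are pseudogenes. The protein-coding genes Olfr607 and Olfr687 were not analysed here. The nearest Olfr promoters outside the interval are Olfr521, 2712539 bp before the first member, and Olfr693, 1311958 bp after the last.

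In the GENCODE vM21 annotation 123 members are protein coding, and Olfr663 is a polymorphic pseudogene. The probes of 114 members reach into their own coding sequence, and 8 overlap an exon of another gene. For 116 members the start that the probe uses is the RefSeq gene start, and for 95 of the 124 it is the RefSeq coding start. GENCODE places the first exon further upstream for most members: in 88 it begins before the whole probe, and the median distance is 2921 bp before the start that the probe uses. For these members the probe does not hold the GENCODE start.

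The probes held few CG sites, the sites that MBD capture reads. The median was 8 CG sites (quartiles 6 to 11, range 1 to 35), equal to the median and quartiles of the other Olfr promoters. The 54 neighbours had a median of 27.5 and all promoters of 45. CG sites were denser in the 200 bp after the start (6.69 per kb) than in the 4 successive 500 bp stretches before it (3.71 to 4.23 per kb), and in the other Olfr promoters the stretch after the start held 7.22 per kb. The contrast in CG content can be seen in the most CG-rich 200 bases, outside annotated exons, of the probes with the most and the fewest CG sites (RefSeq assembly GRCm38.p6, written 5′ to 3′ along the gene's strand, with CG in capitals). That of Olfr648, at chr7:104181663-104181862 on the minus strand in an intron of the gene, holds 13 of the 35 CG sites of its probe, and 93.0% of it is masked as repeat. That of Olfr594, at chr7:103219241-103219440 on the plus strand in an intron, holds the 1 CG of its probe.
Olfr648: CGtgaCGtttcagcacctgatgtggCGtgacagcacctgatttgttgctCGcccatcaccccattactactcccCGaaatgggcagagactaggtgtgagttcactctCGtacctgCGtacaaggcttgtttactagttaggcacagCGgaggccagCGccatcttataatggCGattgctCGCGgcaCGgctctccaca
Olfr594: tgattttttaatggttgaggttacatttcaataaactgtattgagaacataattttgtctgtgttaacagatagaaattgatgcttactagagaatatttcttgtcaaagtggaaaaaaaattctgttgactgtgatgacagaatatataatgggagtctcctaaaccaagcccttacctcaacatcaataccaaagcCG

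The 4 promoters at which the DEHP and control libraries of a strain did not overlap, if the SD is a sample SD, carried intermediate numbers of CG sites, between 6 and 14. Their most CG-rich exon-free stretches of 200 bases are shown in the same way. The stretch of Olfr644 is chr7:104069156-104069355, that of Olfr645 chr7:104086701-104086900, that of Olfr64 chr7:103896092-103896291 and that of Olfr629 chr7:103742022-103742221, all on the minus strand. Those of Olfr644 and Olfr629 lie in introns of their genes, that of Olfr645 lies in an intron of Olfr643, whose GENCODE model extends over it, and that of Olfr64 lies outside annotated genes.
Olfr644: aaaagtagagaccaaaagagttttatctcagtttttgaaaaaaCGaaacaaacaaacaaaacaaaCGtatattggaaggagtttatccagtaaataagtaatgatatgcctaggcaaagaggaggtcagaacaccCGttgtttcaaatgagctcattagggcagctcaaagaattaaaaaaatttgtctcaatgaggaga
Olfr645: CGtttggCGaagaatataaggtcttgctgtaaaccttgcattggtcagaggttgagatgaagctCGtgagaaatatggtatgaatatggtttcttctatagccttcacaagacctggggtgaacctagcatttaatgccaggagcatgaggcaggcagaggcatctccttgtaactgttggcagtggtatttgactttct
Olfr64: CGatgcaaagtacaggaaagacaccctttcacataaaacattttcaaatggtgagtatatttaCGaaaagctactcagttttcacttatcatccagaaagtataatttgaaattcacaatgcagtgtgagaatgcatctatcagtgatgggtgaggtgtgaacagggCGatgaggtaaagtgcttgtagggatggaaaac
Olfr629: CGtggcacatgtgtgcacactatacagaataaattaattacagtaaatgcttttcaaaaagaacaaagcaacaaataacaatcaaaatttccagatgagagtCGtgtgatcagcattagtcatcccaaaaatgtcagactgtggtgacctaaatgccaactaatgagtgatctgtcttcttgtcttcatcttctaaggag

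Further sequence features were close to those of the other Olfr promoters. The GC content had a median of 37.1% against 35.5%, and the share masked as repeats was 19.1% against 21.6%. In the RefSeq windows of 250 bases before to 50 bases after the gene start, which matched 107 members, the homeodomain core TAATTA (a palindrome, so both strands) stood in 14.0%, compared with 19.4% of 798 other Olfr windows and 5.29% of all 32851 windows. The letters CCCNNGGG, a palindromic core bound by Ebf factors, stood in 2.80%, 3.01% and 13.7%. A CG stood in 67.3% of the members' windows, 67.0% of the other Olfr windows and 94.6% of all windows. For 95 of the 124 members the start that the probe uses is the RefSeq coding start. The GENCODE start lies a median of 2921 bp before the start that the probe uses. Windows at the RefSeq start may thus miss the promoter of many members, so these shares do not show how often promoters hold the motifs.

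Depth at these promoters was low. Over all promoters, the authors' means summed to between 141091.6 and 226268 normalized reads per group, and the median promoter had 5.0 reads in C57BL/6J controls against 5.3 after DEHP, and 3.0 in FVB/N controls against 4.9 after DEHP. DEHP and control libraries were submitted separately and were read at 51 and 49 bases, so the treatment and the submission batch cannot be told apart. Promoters of imprinted genes were read as a check of the tissue. Of genes with paternal methylation, H19 held 17.5 to 25.3 reads in the 4 groups, Meg3 5.2 to 25.8 and Rasgrf1 2.4 to 3.7. Of 10 promoters of genes with maternal methylation, 9 lay between 0.5 and 8.1, and Nnat lay between 9.5 and 26.5. These ranges overlap, and whether each probe holds the region methylated in sperm was not examined, so the check does not settle the tissue.

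In controls the class I promoters carried fewer reads than most promoters, and in DEHP groups they lay closer to the rest. The median member of C57BL/6J had 2.25 normalized reads in controls and 4.05 in DEHP males. In FVB/N it had 1.2 in controls and 3.7 in DEHP males. The other Olfr promoters had medians of 1.6, 3.55, 1.1 and 3.1 in the same order, and the neighbours of 4.95, 4.95, 2.5 and 3.65. Members differed widely among themselves, from 0 to 37.4 reads in controls and 0.7 to 17.2 in DEHP males of C57BL/6J, and from 0 to 30.5 and 0.2 to 16.1 in FVB/N. Members with a mean under 1 read numbered 25 and 51 in the C57BL/6J and FVB/N controls, and 2 and 9 in the DEHP groups.

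The spread between libraries was large at such depth. In FVB/N controls the SD exceeded the mean at 60 members, against 32 in the controls of C57BL/6J and 4 and 5 in the DEHP males of C57BL/6J and FVB/N. Those counts are 48.4%, 25.8%, 3.2% and 4.0% of the members. Of all promoters 31.6%, 12.4%, 4.89% and 7.26% had an SD above the mean, in the same order. Among members with a mean of at least 1 read, the median SD was 0.605 of the mean in controls and 0.442 in DEHP males of C57BL/6J, and 0.889 and 0.475 in FVB/N. For all promoters these shares were 0.463, 0.421, 0.735 and 0.389. Between the quartiles the members also lay closer together in DEHP than in control males of C57BL/6J, spanning 0.96 against 1.55 on the log2 scale. In FVB/N the spans were 1.08 and 1.13. All promoters also spanned less in DEHP than in control males, 1.48 against 2.14 in C57BL/6J and 1.585 against 1.79 in FVB/N.

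**Figure D1:**
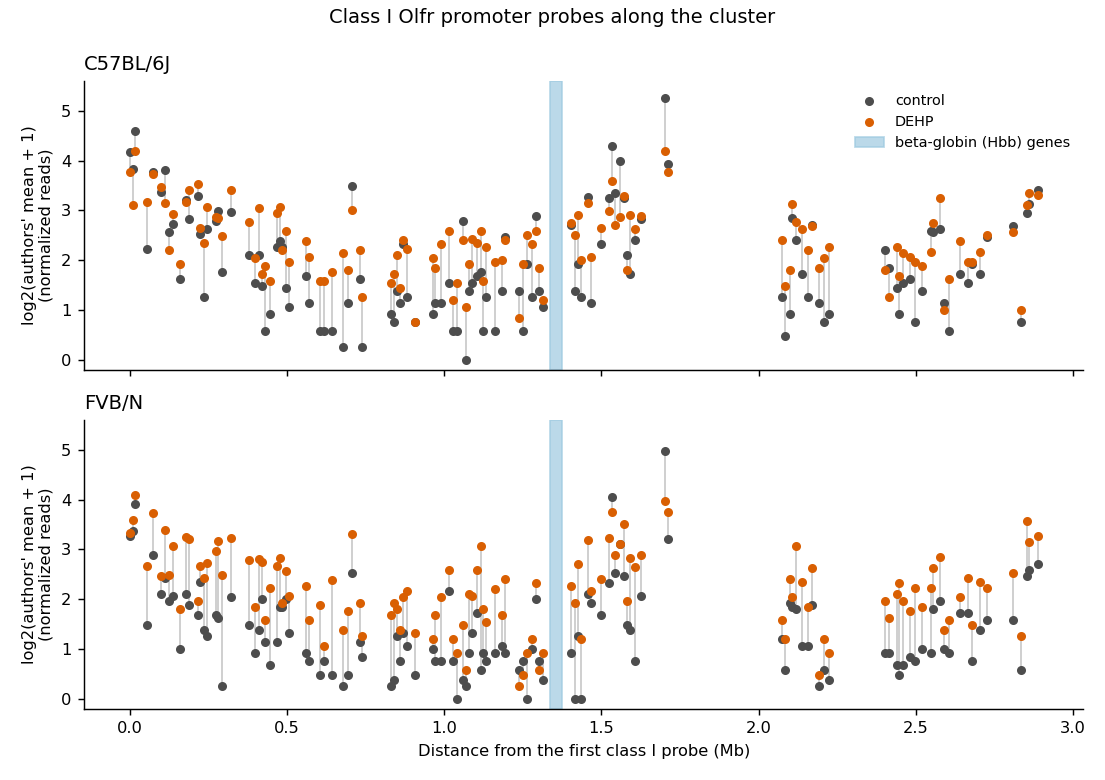
Authors' mean at each of the 124 class I probes (y axis, log2 of normalized reads plus 1) against distance from the first class I probe (x axis, Mb), in C57BL/6J (top) and FVB/N (bottom). Grey points are controls, orange points DEHP groups, each a mean of 5 libraries joined by a line per probe, and the blue band marks the beta-globin genes. Orange points lie above grey at 94 members (C57BL/6J) and 118 members (FVB/N), and the highest member is Olfr648.

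The first comparison asks whether prenatal DEHP went with altered methylation of these promoters in sperm. In C57BL/6J the log2 ratio of DEHP over control had a median of 0.56 over the 124 members (quartiles 0.04 to 0.94, range -1.12 to 1.87). The ratio was above 0 at 94 members and below 0 at 29, where 43.5% of all promoters were above 0 and 54.8% below. In FVB/N the median was 0.82 (quartiles 0.51 to 1.22, range -1.0 to 2.49), with 118 members above 0 and 5 below, where 69.1% of all promoters were above 0 and 28.7% below. A mean over many sperm does not tell a difference in all of them from one in a share of them. The median of all promoters was itself -0.10 (C57BL/6J) and 0.35 (FVB/N), so relative to all promoters the class I medians were 0.66 and 0.47. With the sums over all promoters made equal in the 4 groups, 116 members of C57BL/6J were above 0 and 8 below (68.6% of all promoters above). With the medians made equal, 93 members of FVB/N were above 0 and 30 below (39.8% of all promoters above). The class I medians kept their sign under both scalings.

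Ratios beyond 1 on the log2 scale were counted next. In C57BL/6J 19 members had a ratio above 1 (5.09% of all promoters did) and 2 had a ratio below -1 (10.7% of all). In FVB/N 44 members were above 1 (14.4% of all) and 0 were below -1 (2.68% of all). These counts depended on the scaling of the groups, and the order of the strains turned with equal sums. With sums of all promoters made equal, 54 members of C57BL/6J were above 1 (14.7% of all promoters) and 45 of FVB/N (13.6% of all). With medians made equal, 14 members of C57BL/6J (3.83% of all) and 17 of FVB/N (3.86% of all) were.

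The other Olfr promoters had ratios of similar size. Their median log2 ratio was 0.63 (C57BL/6J) and 0.82 (FVB/N), so that class I differed from them by -0.08 and by 0.003. Ratios above 0 were found at 84.7% and 89.9% of them, compared with 75.8% and 95.2% of class I. Above 1 lay 23.8% and 37.2% of the other Olfr promoters and 15.3% and 35.5% of class I. In FVB/N the sign of the difference turned with the scaling and the pseudocount, and in C57BL/6J it turned against the other Olfr promoters of chromosome 7 (0.02). Promoters are not replicates, so no difference between the classes was tested. The 54 non-Olfr promoters of the same interval had medians of -0.10 and 0.37, at the medians of all promoters, and like these they turned with the scaling (0.37 in C57BL/6J with equal sums, -0.08 in FVB/N with equal medians).

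**Figure D2:**
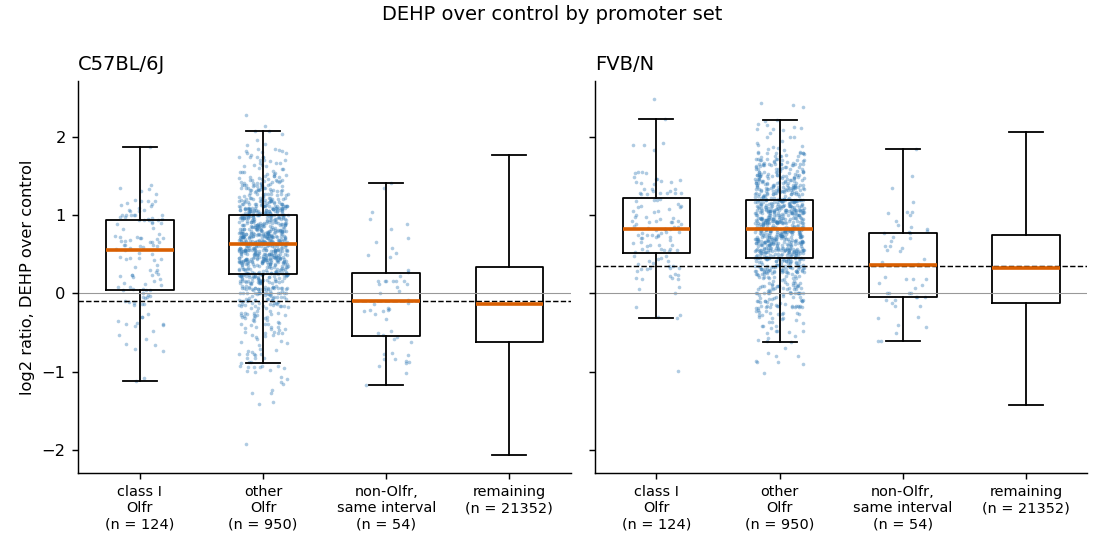
Log2 ratio of the authors' means, DEHP over control (y axis, 1 read added), in C57BL/6J (left) and FVB/N (right) for class I Olfr promoters, other Olfr promoters, non-Olfr promoters of the same interval and the remaining promoters. Boxes span the quartiles with the median in orange and whiskers to 1.5 times the box, points are single promoters except for the remaining ones, and the dashed line is the median of all promoters. Both Olfr boxes lie above the dashed line, with class I medians of 0.56 and 0.82.

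The neighbours differed by gene family. The 5 Usp17l genes, which encode deubiquitinating enzymes, had median ratios of 1.04 (C57BL/6J) and 1.0 (FVB/N). The 10 Trim genes, which encode tripartite motif proteins, had -0.44 and 0.14, and the 5 beta-globin (Hbb) genes had 0.15 and 0.82. The other 34 neighbours had -0.17 and 0.19. The median number of CG sites was 8 in the Usp17l probes, 10 in the Hbb probes and 16 in the Trim probes. The Trim medians turned to 0.02 in C57BL/6J with equal sums and to -0.07 in FVB/N with equal medians, and the Hbb and Usp17l medians stayed above 0.

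Genes that olfactory neurons use with the receptors were examined as a list of 25. It holds signalling proteins such as the adenylyl cyclase Adcy3 and the channel subunits Cnga2 and Cnga4, the receptor chaperones Rtp1 and Rtp2, and nuclear factors such as Lhx2, Ebf1 and Kdm1a. The median number of CG sites in the probes of this list was 71, against 8 in class I, so the 2 sets also differ in CG content. The median ratio of the list was -0.03 (C57BL/6J) and 0.26 (FVB/N). In C57BL/6J 1 of the 25 was above 1 and 3 were below -1 (5.09% and 10.7% of all promoters), and in FVB/N 1 and 2 were (14.4% and 2.68% of all). At 0 of the 25 did the libraries separate in either strain.

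Next, promoters were sought at which every library of one group must lie above every library of the other. No value of 5 can lie more than 1.79 SD from their mean, so the mean and SD bound each library if the SD is a sample SD, and the counts are then lower limits. The type of SD is not given in the sources used here, and with a population SD the bound is 2 SD. In C57BL/6J this held for 1 member, Olfr644, higher in DEHP males (0.249% of all promoters). In FVB/N it held for 3 members, Olfr645, Olfr64 and Olfr629, also higher in DEHP males (0.774% of all). With a population SD it held for 0 members in C57BL/6J (0.142% of all) and for 2 in FVB/N, Olfr64 and Olfr629 (0.427% of all). The opposite order was found at 0 members in both strains, where 1.42% and 0.859% of all promoters showed it. No single-library test lies behind these counts.

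Olfr644 (14 CG sites) had 2.3 ± 0.7 reads in controls and 6.5 ± 1.4 in DEHP males of C57BL/6J. The control libraries could not exceed 3.69 and the DEHP libraries could not fall below 3.86, so the separation was narrow, and it was lost when the group medians were made equal or when the SD was read as a population SD. In FVB/N the same promoter had 1.6 ± 1.3 and 6.1 ± 3.5 reads, and its groups could overlap. The log2 ratio was 1.18 (C57BL/6J) and 1.45 (FVB/N).

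Olfr645, the next member of the same MOR family 13 in the cluster, showed the difference in FVB/N, with 0.7 ± 0.6 reads in controls and 5.3 ± 1.6 in DEHP males (log2 ratio 1.89). In C57BL/6J it had 4.3 ± 2.5 and 5.2 ± 1.7 reads (0.23). The FVB/N control group was thus the low one of the 4 groups. The control libraries could not exceed 1.91 and the DEHP libraries could not fall below 2.30, and the separation was lost, as at Olfr644, with equal medians and with a population SD.

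Olfr64 was listed at 0 in FVB/N controls and had 2.8 ± 0.7 reads in FVB/N DEHP males, against 1.6 ± 1.6 and 4.7 ± 2.4 in C57BL/6J. Olfr629 was likewise listed at 0 in FVB/N controls, with 0.9 ± 0.1 in FVB/N DEHP males and 2.8 ± 3.8 and 4.7 ± 1.4 in C57BL/6J. With a sample SD, the Olfr629 libraries of FVB/N could not exceed 0.14 in controls and lay between 0.58 and 1.22 in DEHP males. Its separation was thus near the floor of the values. The probes of Olfr64 and Olfr629 differ between the strains at many bases, with 36 and 61 variants in the authors' table. Among members with fewer than 30 variants, a limit chosen after the data were seen, Olfr645 alone was separated in FVB/N, and its separation was the one of the 3 that equal medians or a population SD ended.

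The largest ratios among members with at least 2 reads in either group are given as a description, since that limit admits members with few control reads only where the DEHP group is high. In FVB/N, Olfr618 had 0.5 ± 1.1 reads in controls and 7.4 ± 3.0 in DEHP males (log2 ratio 2.49), and Olfr561 had 0.2 ± 0.4 and 4.6 ± 2.7 (2.22). In C57BL/6J the ratios of these promoters were 0.82 and 0.72. In C57BL/6J, Olfr589 had 0.2 ± 0.5 reads in controls and 3.4 ± 1.8 in DEHP males (1.87), and Olfr622 had 0.5 ± 1.1 and 2.9 ± 1.3 (1.38). Their FVB/N ratios were 1.12 and 1.28. The bounds on single libraries overlapped for each of these pairs.

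Olfr628 went opposite ways in the strains. It had 0.5 ± 0.7 reads in C57BL/6J controls and 2.8 ± 1.6 in DEHP males (1.34), but 0.7 ± 0.6 and 0.4 ± 0.5 in FVB/N (-0.28). Its probe holds 38 variants between the strains. These signs held under equal sums and equal medians, and the library bounds overlapped in both strains.

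In C57BL/6J, fewer reads in DEHP than in control males were found at the 3 members with the highest levels, Olfr648, Olfr545 and Olfr639. Olfr648 had the highest mean over the 4 groups and the most CG sites, 35. It held 37.4 reads (SD 12) in controls and 17.2 ± 5.4 in DEHP males of C57BL/6J (log2 ratio -1.08). In FVB/N it held 30.5 ± 10.2 and 14.8 ± 4.3 (-1.0). The direction was the same in both strains and under both scalings (with equal sums -0.54 for C57BL/6J and -1.09 for FVB/N, with equal medians -1.15 and -1.68), while the library bounds overlapped. Olfr545, with 32 CG sites, had 23.2 ± 6.8 and 17.2 ± 7.1 reads in C57BL/6J but 14.0 ± 2.3 and 16.1 ± 1.9 in FVB/N, and its sign turned in each strain with the scaling.

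Olfr639 (17 CG sites) had 18.7 ± 4.2 and 11.0 ± 4.3 reads in C57BL/6J, whereas FVB/N had 15.6 ± 4.4 and 12.5 ± 1.2, control first. Olfr641 had 14.9 ± 6.9 and 6.3 ± 2.2 in C57BL/6J (-1.12) but 7.6 ± 5.5 and 7.6 ± 2.4 in FVB/N (0.00), with 6 CG sites. Olfr544, a receptor for azelaic acid, had 13.3 ± 6.3 and 7.6 ± 4.4 in C57BL/6J (-0.73) but 9.3 ± 4.9 and 11.1 ± 4.9 in FVB/N (0.23, turning to -0.42 with equal medians). The 3 members with a ratio below 0 in both strains were Olfr648, Olfr639 and Olfr243, the last at only 1.6 ± 1.5 and 0.8 ± 0.7 reads in C57BL/6J, whereas FVB/N had 0.5 ± 0.6 and 0.2 ± 0.4. These 3 are 2.42% of class I, whereas 3.26% of the other Olfr promoters and 23.1% of all promoters were below 0 in both strains. The 3 members were also below 0 in both strains under equal sums and equal medians, where 4 and 15 members were in all. Shares of all promoters were not taken under these scalings.

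**Figure D3:**
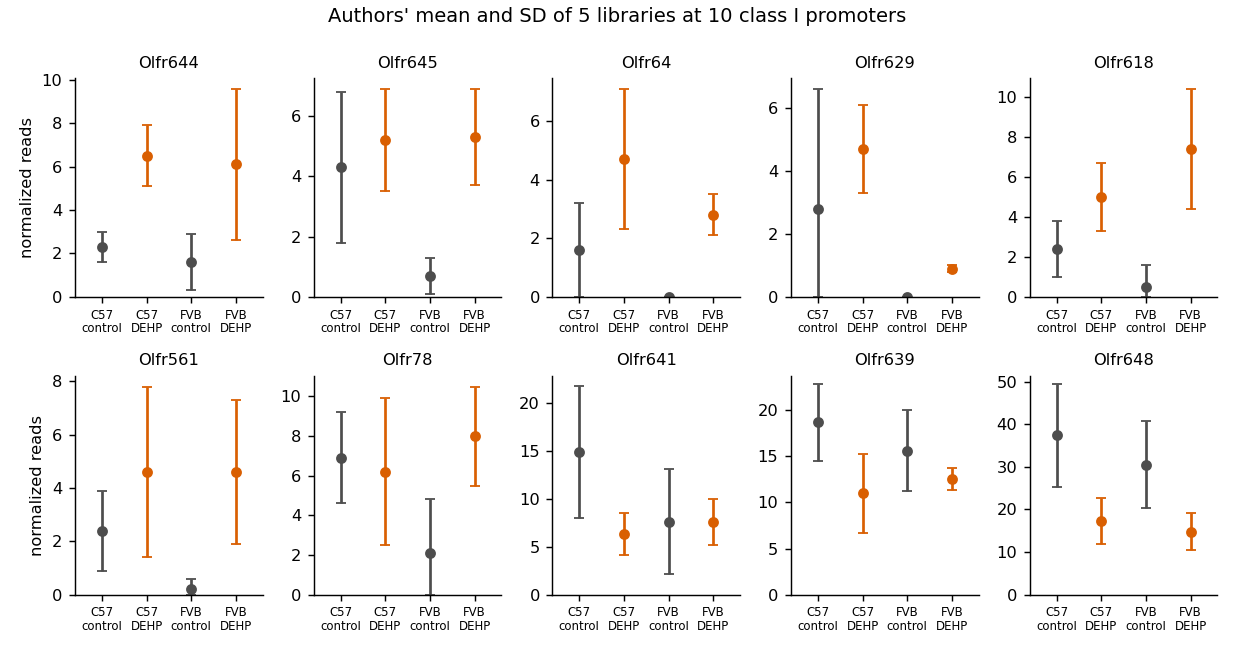
Authors' mean and SD (5 libraries per group, y axes in normalized reads from 0, each with its own range; lower bars end at 0 where the SD exceeds the mean) at 10 class I promoters in control (grey) and DEHP (orange) groups of both strains. Olfr644, Olfr645, Olfr64 and Olfr629 are the members whose DEHP libraries all lie above the controls of 1 strain if the SD is a sample SD, and Olfr639 and Olfr648 are lower in DEHP in both strains.

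Receptors known outside the nose or with a well-known ligand were described as a group of 7. Olfr78, which senses lactate and short-chain fatty acids, had 6.9 ± 2.3 and 6.2 ± 3.7 reads in C57BL/6J controls and DEHP males, and 2.1 ± 2.7 and 8.0 ± 2.5 in FVB/N. The log2 ratios were -0.13 and 1.54, the former turning to 0.35 with equal sums, and the groups could overlap in both strains. Olfr558, another receptor of short-chain fatty acids from the same MOR family 18, had 4.8 ± 3.2 and 5.3 ± 1.1 in C57BL/6J, whereas FVB/N had 4.1 ± 6.2 and 5.4 ± 1.6, so the groups lay within their spread.

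Olfr690 and Olfr691, at the far end of the cluster, had FVB/N ratios of 1.11 and 0.57 (the latter turning to -0.04 with equal medians) and C57BL/6J ratios of 0.16 and 0.23. Olfr672 had 1.6 ± 1.0 and 2.7 ± 1.2 reads in C57BL/6J, whereas FVB/N had 1.0 ± 1.2 and 2.6 ± 1.7. Olfr543, the first member of the cluster, had 17.0 ± 4.3 and 12.7 ± 7.0 in C57BL/6J, whereas FVB/N had 8.7 ± 7.8 and 9.1 ± 5.4. At 0 of the 7 were the libraries separated.

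The number of CG sites in the probe went with the level of the members and, in C57BL/6J, with the ratio. Members with at most 5 CG sites (23), 6 to 8 (48), 9 to 12 (30) and more than 12 (23) had median levels of 1.6, 1.6, 3.75 and 8.5 reads in C57BL/6J controls. After DEHP the same bins had 2.9, 3.25, 5.0 and 8.0 reads. The median log2 ratios in C57BL/6J were 0.67, 0.66, 0.45 and -0.02 from the fewest to the most CG sites. With equal sums they were 1.03, 0.98, 0.86 and 0.47, so the order held but the sign of the last bin did not. In FVB/N the medians were 0.72, 0.81, 0.94 and 0.91. Spearman's rho across the 124 members between CG sites and the ratio was -0.27 (C57BL/6J) and 0.01 (FVB/N), as a description of promoters that share the same libraries. Olfr66, with 33 CG sites, had 5.5 ± 2.1 and 5.7 ± 2.7 reads in C57BL/6J, whereas FVB/N had 0.9 ± 0.5 and 3.8 ± 2.2, control first. At the poor end, Olfr594 had 0.2 ± 0.5 and 1.4 ± 0.5 in C57BL/6J, whereas FVB/N had 0.8 ± 0.9 and 1.4 ± 1.2, and Olfr623 and Olfr670, with 3 sites each, had C57BL/6J ratios of 0.62 and 0.44.

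Promoters of other genes with few CG sites had ratios of the same sign. The other Olfr promoters of C57BL/6J in these bins had median ratios of 0.71, 0.74, 0.64 and 0.15. The remaining promoters of the genome with at most 5, 6 to 8 and 9 to 12 CG sites had 0.53, 0.57 and 0.48 in C57BL/6J, whereas FVB/N had 0.44, 0.73 and 0.82. With more than 12 CG sites, which 91.9% of the remaining promoters had, the medians were -0.20 and 0.29.

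**Figure D4:**
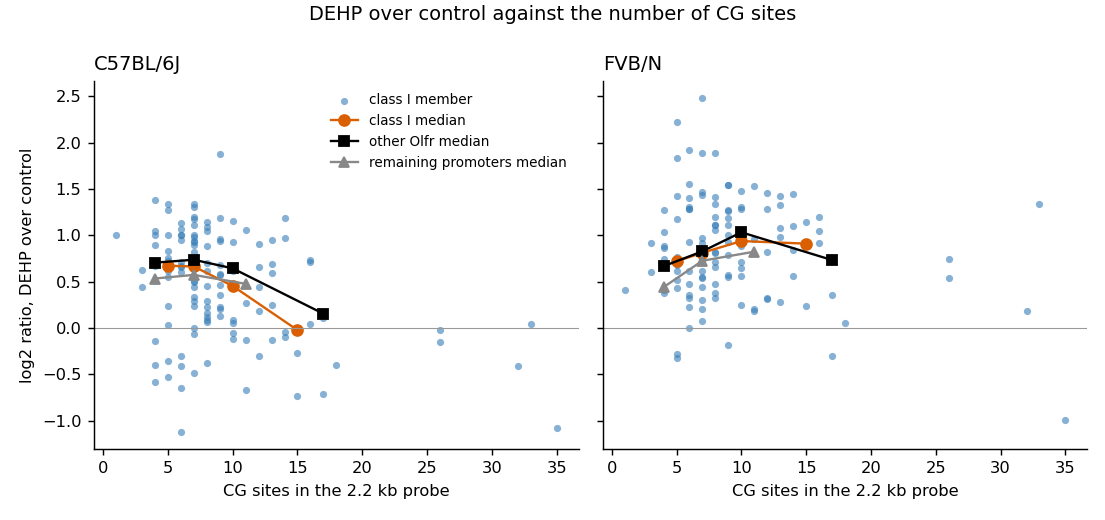
Log2 ratio of DEHP over control (y axis) against the number of CG sites in the probe (x axis) for the 124 class I members (blue points) in C57BL/6J (left) and FVB/N (right). Lines join the bin medians of class I (orange), other Olfr (black) and the remaining promoters (grey, up to 12 CG sites), each drawn at the bin's median number of sites. The class I medians run from 0.67 to -0.02 in C57BL/6J and from 0.72 to 0.91 in FVB/N.

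Members were also grouped by their level in the controls of the other strain. Those libraries do not enter the ratio, but they shared a submission with the controls that do, so the grouping is not independent of the submission batch. In C57BL/6J the lowest median again lay in the highest bin. Where the FVB/N control mean was under 1 read (51 members), 1 to under 3 (46) and at least 3 (27), the C57BL/6J ratio had medians of 0.71, 0.62 and -0.10 (1.03, 1.05 and 0.40 with equal sums). Grouped by the C57BL/6J control level in the same way (25, 47 and 52 members), the FVB/N ratio had medians of 0.68, 0.81 and 0.87. Members with at least 3 reads in C57BL/6J controls thus had a positive median in FVB/N, also under both scalings. Grouped by the FVB/N controls, which do enter that ratio, the 27 members with at least 3 reads had 0.56. That median turned to -0.04 with equal medians.

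Position in the cluster was examined in 7 consecutive blocks of 0.5 Mb. The C57BL/6J median ratio was below 0 in 2 of them, the first (Olfr543 to Olfr545, 3 members, -0.41) and the fifth (Olfr638 to Olfr649, 11 members, -0.27). In the fifth block 7 of 11 members were below 0 in C57BL/6J, where 54.8% of all promoters were. Its median number of CG sites was 14, and its median level was 8.5 reads in C57BL/6J controls and 6.5 in DEHP males. The first block had a median of 18 CG sites and levels of 17.0 and 12.7. With equal sums the medians of these blocks turned to 0.12 and 0.23, still below those of the other 5 blocks, which were then between 0.64 and 1.14. In the other 5 blocks the C57BL/6J medians ran from 0.18 to 0.93, and the FVB/N medians of all 7 blocks from 0.19 to 0.99, of which the first and the fifth turned to -0.48 and -0.01 with equal medians.

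The MOR families, which group receptors by protein similarity, were compared where at least 4 members were present. Of the 41 families 9 had that many, and 119 members could be given 1 family. In family 14, which holds Olfr561 and Olfr560, all 8 members had ratios above 0 in both strains, with medians of 0.67 (C57BL/6J) and 1.24 (FVB/N). Of all class I members 74.2% were above 0 in both strains, and of all promoters 37.3%. The medians of family 14 stayed above 0 under both scalings, but Olfr585 fell below 0 in FVB/N with equal medians. In family 22 (Olfr243, Olfr628, Olfr68 and Olfr69) the FVB/N median was -0.23 and 1 of 4 was above 0, where 69.1% of all promoters were. The C57BL/6J median was 0.08, and the signs of both medians held under both scalings. The median levels of family 22 in FVB/N were only 0.7 reads in controls and 0.45 in DEHP males. Its probes hold 36 to 55 variants between the strains. Family 13, with Olfr640 to Olfr645, had medians of -0.13 and 0.76 and ratios from -1.12 to 1.18 in C57BL/6J, where its median turned to 0.33 with equal sums. Family 31, to which Olfr648 belongs, covered 0.5 to 37.4 reads among its 11 members in C57BL/6J controls.

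The DEHP ratios were set side by side in the strains. At 92 members the ratio was above 0 in both strains (74.2%, against 78.0% of the other Olfr promoters and 37.3% of all promoters). At 25 members it was below 0 in C57BL/6J and above 0 in FVB/N, and at 2 the opposite. Of all 22480 promoters, 6872 and 1172 showed these orders. The class I counts depended on the scaling. With equal sums 113 members were above 0 in both strains and 4 below in both, and with equal medians 73 and 15. The shares of all promoters above 0 or below 0 in both strains were not taken under these scalings. The FVB/N ratio was the higher of the pair at 91 members (73.4%), with a median difference of 0.45, where 77.1% of all promoters showed that order and their median difference was 0.50. Relative to all promoters the class I difference was -0.04 and that of the other Olfr promoters -0.26. The FVB/N ratio was higher at 68 members with equal sums and at 72 with equal medians, while the order of the class I medians turned (0.90 in C57BL/6J against 0.78 with equal sums, 0.48 against 0.36 with equal medians). The share of all promoters with the higher FVB/N ratio was not taken under these scalings, and whether the strains differed was not tested.

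The strains themselves were compared within each treatment, where the libraries shared a submission. In controls the log2 ratio of C57BL/6J over FVB/N had a median of 0.61 over the members, of which 101 were above 0 (82.1% of all promoters were), and that of all promoters was 0.54. With equal sums the class I median in controls was 0.13, and with equal medians 0.10, where all promoters had 0.0007 and -0.04. In DEHP males the class I median was 0.07 (0.05 with equal sums and -0.02 with equal medians), with 72 members above 0 (53.1% of all promoters), and that of all promoters 0.04. The members with the largest control ratios were Olfr612, with 5.9 ± 3.2 reads in C57BL/6J, compared with 0.3 ± 0.6 in FVB/N, and Olfr629, described above. The smallest were those of Olfr653, with 0.9 ± 1.5 and 2.8 ± 2.7 reads, and Olfr633, with 1.2 ± 1.1 and 2.8 ± 2.9. In controls 0 members were separated between strains (1.06% of all promoters were, with C57BL/6J higher), and in DEHP males 2 were, Olfr557 and Olfr629, both higher in C57BL/6J (0.307% of all), of which Olfr557 was not separated with equal sums, equal medians or a population SD. FVB/N was the separated higher strain at 0 members in either treatment (0.0267% of all promoters in controls and 0.0311% in DEHP males).

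The strains differed in sequence more often at class I probes than at the other Olfr probes. The authors' table gave a median of 3 variants per member against 1, and 30 or more at 22 members (17.7%), compared with 4.53% of the other Olfr promoters and 2.44% of all. Variants that the authors marked as functional were present in 57 of the members (46.0%), against 31.6% of the other Olfr genes. The 54 non-Olfr promoters of the interval had a median of 2 variants, 30 or more at 11.1%, and a functional variant at 44.4%. The variants lay together: of the 22 probes with at least 30, 17 fell in the fourth block (Olfr610 to Olfr635, 27 members), which also holds the beta-globin genes. The fifth block beside it had a median of 0.

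The strain ratio was then set beside these variants. In DEHP males its median was 0.01 at members with at most 1 variant (50) and -0.02 with 2 to 9 (38). It was 0.28 with 10 to 29 (14) and 0.60 with 30 or more (22). In the last bin 19 of 22 members were higher in C57BL/6J, as many as in controls. Of all promoters 53.1% were higher in C57BL/6J in DEHP males and 82.1% in controls. Of the 43 other Olfr promoters in that bin, 40 were higher in DEHP males and 41 in controls. In DEHP males the other Olfr promoters had medians of 0.12, 0.09, 0.22 and 0.68 in these bins, and the remaining promoters 0.00, 0.06, 0.25 and 0.67. In controls the members had medians of 0.63, 0.65, 0.33 and 0.64, without that order. The other Olfr promoters had it in controls too, with 0.31, 0.36, 0.55 and 0.79, and so did the remaining promoters, with 0.50, 0.55, 0.78 and 1.05. Spearman's rho between variants and the strain ratio over the 124 members was 0.41 in DEHP males and 0.08 in controls, as a description. The part of the variants in the counted reads was not tested.

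**Figure D5:**
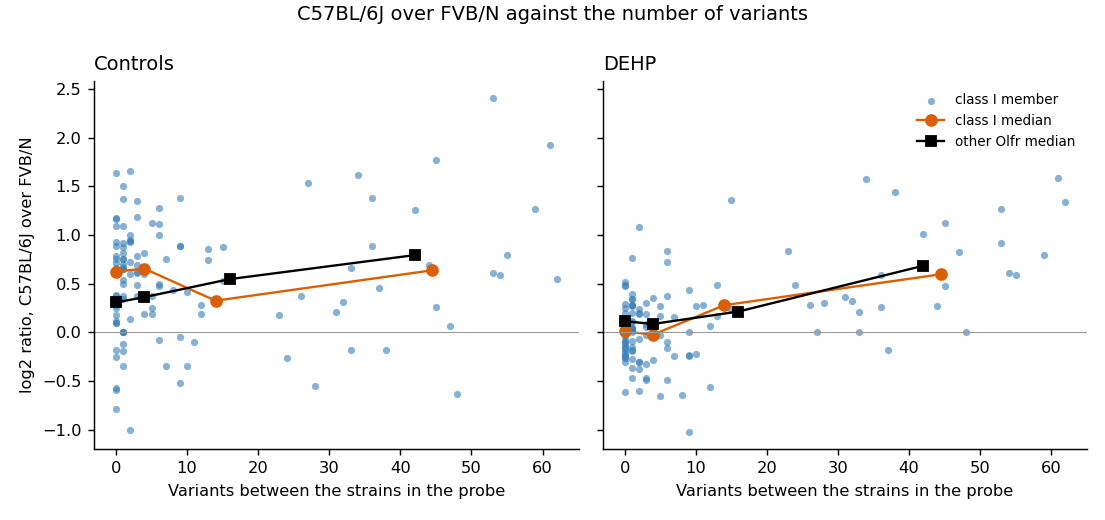
Log2 ratio of C57BL/6J over FVB/N (y axis) against the number of variants between the strains in the probe (x axis) in controls (left) and DEHP males (right). Blue points are the 124 class I members, and lines join the bin medians of class I (orange) and other Olfr promoters (black). In DEHP males the class I medians run from 0.01 to 0.60, and in controls they are 0.63, 0.65, 0.33 and 0.64.

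Shared sequence was a further property of the members. Reads of 49 and 51 bases drawn along the probes were unique in the genome for a median of 97.2% and 98.1% of positions, equal to the other Olfr probes. At 8 members, among them Olfr603 and Olfr613, under 80% of positions were unique. Their median level in C57BL/6J controls was 0.7 reads against 2.35 in the other 116, and their median log2 ratios were 0.80 against 0.48 in C57BL/6J, and 0.81 against 0.82 in FVB/N. Olfr613, listed at 0 in C57BL/6J controls and 1.1 ± 0.8 in DEHP males, had the lowest mean over the 4 groups.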

How the data were processed

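Sperm DNA bound by the methyl-CpG binding domain was sequenced in 20 libraries, 5 for each of 4 groups. The authors aligned reads with Bowtie 0.12.7 and used edgeR, per the submitters' processing notes and the study's methods. The deposited table gives the signal of each 2.2 kb promoter probe as the authors' group mean and SD of normalized reads, to 1 decimal. It also holds the authors' scores, that is the number of CG sites, the variants between strains and a testis expression value from another dataset. Of the 124 members, 11 have a testis value (3.00 to 5.45 on a scale not given in the sources used here). The authors' own comparisons (log2 fold changes, p-values and false discovery rates) were not used; only group summaries were analysed.

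Members were chosen by symbol and position, and the members and gene lists were chosen with earlier results of these data known. Named members were, by rule, those with separated groups, those with the 3 largest and 3 smallest ratios per strain (mean of at least 2 in either group), the 3 highest and lowest means, the 3 with most and fewest CG sites, the 2 extreme strain ratios in controls per direction, and 7 receptors known outside the nose or by ligand. Further members named in families, blocks or counts were chosen after their values were seen. Ratios are log2((mean + 1)/(mean + 1)). Groups were called separated where mean ± 1.79 SD, with mean and SD each moved by 0.05 toward overlap for rounding, did not overlap, a bound tested on simulated data. Gene models came from GENCODE vM21 and RefSeq (GRCm38.p6), and uniqueness was counted every 20 bp with exact matches on both strands. Alternatives were another pseudocount, equal sums, equal medians, a filter on low means, a population SD and other comparison sets. Python 3.11.15, numpy 2.4.6, pandas 2.3.3, numba 0.67.0 and matplotlib 3.10.9 were used. Reads are not independent molecules, and depth per library was not used here, so no counting interval is given.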

Additional observations from a re-analysis of the deposited data

How the results depend on the processing

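The class I median ratio ran from 0.48 to 0.90 in C57BL/6J and from 0.36 to 1.21 in FVB/N, above 0 in each alternative run. FVB/N was the higher strain with the means as deposited, but C57BL/6J was higher with equal sums (0.90 against 0.78) and equal medians (0.48 against 0.36). With a pseudocount of 0.1, 46 (C57BL/6J) and 77 (FVB/N) members had a ratio above 1, and 1 in FVB/N was below -1. Shares of all promoters were not taken at that pseudocount. With equal sums, 3 members were separated with DEHP above control in C57BL/6J, where 1.02% of all promoters were. There 54 members were above 1 (14.7% of all promoters) and 0 below -1 (2.22% of all). In FVB/N 1 was below -1 (3.61% of all). With equal medians, 0 were separated in C57BL/6J (0.222% of all promoters). In FVB/N 17 were then above 1 (3.86% of all) and 1 below -1 (13.5% of all). With the SD read as a population SD, 0 were separated in C57BL/6J (0.142% of all promoters). Olfr645 was lost in FVB/N with that SD and with equal medians. Among the 102 members with fewer than 30 variants, an alternative chosen after seeing the data, 1 was separated in FVB/N. Of all promoters, with any number of variants, 0.774% were. The cause of these moves was not tested. The difference of class I from the other Olfr promoters ran from -0.17 to 0.02 in C57BL/6J and from -0.08 to 0.07 in FVB/N. The strain ratio ran from 0.10 to 0.84 in controls and from -0.02 to 0.09 in DEHP males. No symbol of a member ends in -ps, so leaving out pseudogene symbols changed no member. No paired analysis was possible because the labels number no replicates across groups and the values are group means. Leaving out single libraries was not run for the same reason. Depth limits the members most in FVB/N controls, where 51 of 124 means lay under 1 read.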
